A study of Ovis aries with 32 samples.

Results

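DGAT2, SREBF1, ACACB, DHCR7 and PEX13 were followed in the heart of 14-day-old lambs, across the left ventricular free wall (LV) and the interventricular septum (IVS). CORT lambs were born to ewes given cortisol at 0.5 mg/kg/d by overnight infusion (2100 to 0900 h), from day 115 of gestation up to delivery. Control lambs were born to ewes without the infusion, and no lamb was itself treated. Each of the 4 groups (LV Control, LV CORT, IVS Control and IVS CORT) held 8 arrays, 32 in all, with a labelled RNA sample on each array. The study's methods state that a set of twins was born in each group of ewes and that both sexes were used. The labels give neither litter nor sex for a lamb, so lambs of 1 litter cannot be set apart here.

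The 5 genes were 5 of the 15008 probes of the array, each with 1 spot per array. They were chosen from measured values: SREBF1, ACACB, DHCR7 and PEX13 because the study lists them as changed in the LV, and DGAT2 because it is listed as changed in the IVS. For this reason the LV differences of the first 4 and the IVS difference of DGAT2 are given below as descriptions, with no test. What the choice did not use, namely DGAT2 in the LV, the other 4 in the IVS, and the comparison between the tissues, was tested.

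Fat is stored in cells as triglyceride, and the last step of triglyceride synthesis joins a fatty acid to diacylglycerol. DGAT2 is an enzyme of that step. SREBF1 encodes the transcription factor SREBP-1, which drives the genes of fatty acid synthesis, and ACACB encodes an acetyl-CoA carboxylase at the mitochondrion whose product, malonyl-CoA, restrains the entry of fatty acids into mitochondria for oxidation. DHCR7 catalyses the last step of one branch of cholesterol synthesis. PEX13 belongs to the machinery that imports enzymes into peroxisomes, where very long fatty acids are shortened. The heart muscle of a newborn shifts its fuel use toward fatty acids in the days after birth.

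The probes that stand for these genes are shown because every value below rests on them. All are 60 bases long and written 5′ to 3′ as the deposited files give them. Capitals mark TTTATT, the reverse complement of the polyadenylation signal AATAAA.
DGAT2 (A_70_P051791): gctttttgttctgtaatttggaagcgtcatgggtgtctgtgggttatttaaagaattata
SREBF1 (A_70_P004576): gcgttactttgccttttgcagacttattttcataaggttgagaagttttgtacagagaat
ACACB (A_70_P004041): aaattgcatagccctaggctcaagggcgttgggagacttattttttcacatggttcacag
DHCR7 (A_70_P017826): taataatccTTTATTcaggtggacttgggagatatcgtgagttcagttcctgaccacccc
PEX13 (A_70_P056136): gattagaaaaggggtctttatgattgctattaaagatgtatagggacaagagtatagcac

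TTTATT was found in the DHCR7 probe alone among the 5, and in 3.70% of all 15008 probes, while AATAAA was found in none of the 5 and in 5.63% of all. The share of G and C was 35.0% in the DGAT2, SREBF1 and PEX13 probes and 45.0% in the ACACB and DHCR7 probes, against a median of 43.3% over the array. No other probe of the array shared a run of 20 bases with any of the 5. A genome of the sheep was not used here, so the positions of the probes are not given.

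The files pair these 5 probes with expressed sequence tags and not with gene symbols. Their names come from the study's lists of changed genes, matched to the deposited matrix of the tissue (8807 LV and 9001 IVS probes). For each of the 5 genes, 1 probe came within 0.0051 of the fold change and within 5.5e-05 of the p given in that list. The prior settings of limma's test were tuned so that the most listed genes matched. The match of p is thus not independent of the list. At a tolerance of 5.5e-04 on p, 2 other probes also came within the limits for DHCR7 and none for the other genes. The name of DHCR7 is thus the least certain. All 5 probes were well above background on all 32 arrays, with no saturated or outlier spot. Of 16 cardiomyocyte markers the files name 1, myoglobin (MB), at a mean log2 intensity of 18.0 in the LV and 18.3 in the IVS, which shows muscle in both and cannot tell the tissues apart.

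Values are log2 intensities, background corrected and quantile normalized within each tissue. An increase of 1 on this scale is a doubling of the signal. Levels of different probes are not compared, since probes differ in how well they bind. The arrays lay on 5 slides. LV slides 1 and 2 held 4 CORT and 4 Control arrays each, and IVS slides 3, 4 and 5 held 2 Control and 2 CORT, 3 Control and 2 CORT, and 3 Control and 4 CORT arrays. Slides 3 and 4 were scanned 735 and 685 days before the other 3.

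**Figure D1:**
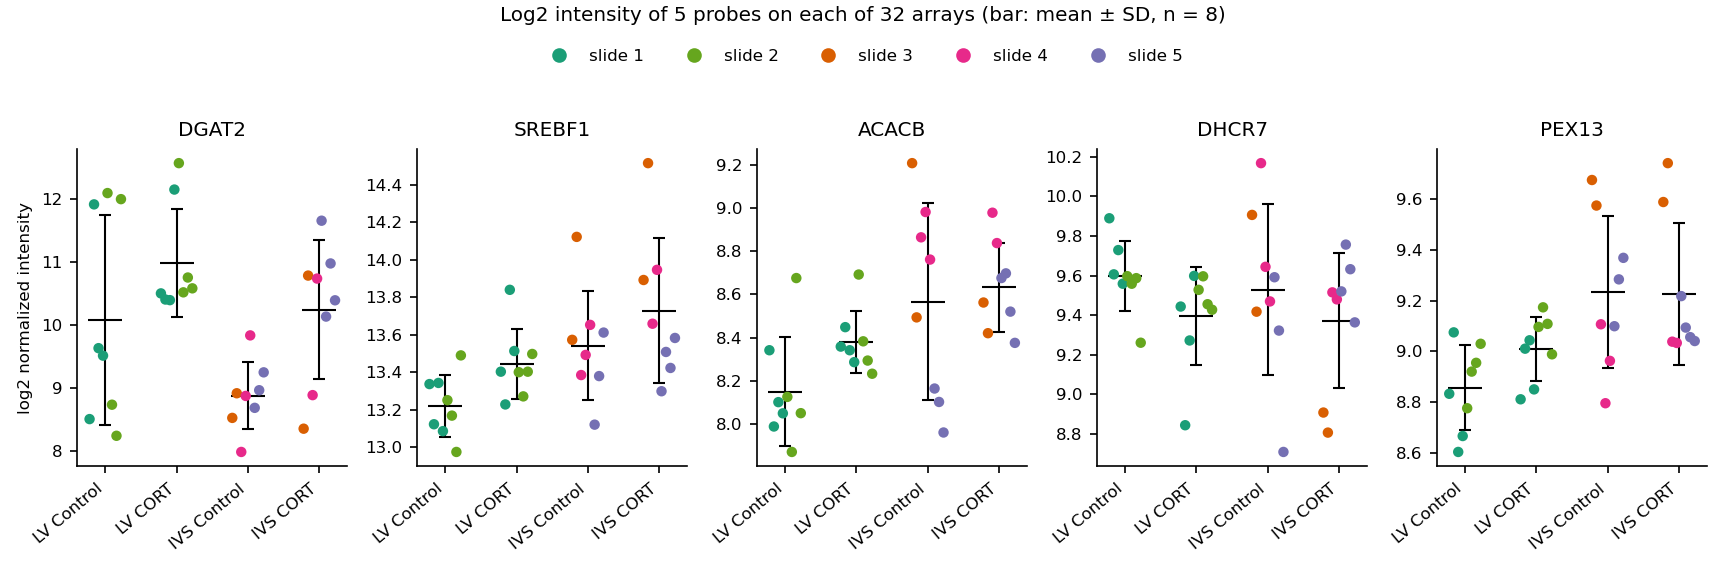
Log2 normalized intensity (vertical axis) of the 5 probes on each array, by tissue and group (horizontal axis). Points are arrays coloured by slide, and bars are the mean ± SD of 8 arrays. The vertical axes do not start at 0 and differ between genes. DGAT2 spans from 7.99 to 12.57, and in the LV 3 Control arrays near 12 stand apart from the other 5.

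DGAT2 was the gene with the largest CORT minus Control difference of the 5 in either tissue, and the one with the widest spread. In the LV, it was 8.51, 11.92, 9.64, 9.52, 12.10, 8.74, 8.25 and 12.00 on Control arrays 1 to 8. On LV CORT arrays 1 to 8 it was 10.50, 10.41, 10.40, 12.15, 12.57, 10.52, 10.76 and 10.58. The Control arrays thus fell into 5 that lay below every CORT array and 3 that lay above 6 of the 8 CORT arrays. The CORT arrays were much more alike, with 6 of the 8 between 10.40 and 10.76.

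LV Control arrays averaged 10.08 ± 1.66 (SD, n = 8) and CORT arrays 10.99 ± 0.86 (SD, n = 8), a log2 difference of 0.90 (SE 0.60, 1.87-fold). All 8 CORT arrays were above the Control mean. The difference did not pass the test (limma, p = 0.147, adjusted p = 0.999; two-sided exact permutation test over 12870 assignments, p = 0.191), and its 95% interval, from -0.35 to 2.16, includes no change as well as an increase larger than the one in the IVS. Without 1 array at a time the difference ranged from 0.64 to 1.19, and it was largest without Control 5.

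In the IVS, where DGAT2 was chosen, it was 8.53, 8.92, 7.99, 8.88, 9.84, 8.69, 8.97 and 9.25 on Control arrays 1 to 8. On IVS CORT arrays 1 to 8 it was 8.36, 10.79, 8.89, 10.74, 11.66, 10.14, 10.98 and 10.39. Of the CORT arrays, 6 lay above every Control array, and CORT 1 and 3 lay among the Controls. Control arrays averaged 8.88 ± 0.54 (SD, n = 8) and CORT arrays 10.24 ± 1.1 (SD, n = 8), a log2 difference of 1.36 (SE 0.39) or 2.57-fold.

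The higher DGAT2 of the CORT arrays was seen on every slide. Within LV slides 1 and 2 the log2 difference was 0.97 and 0.84. Within IVS slides 3, 4 and 5 it was 0.85, 0.91 and 1.82.

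**Figure D2:**
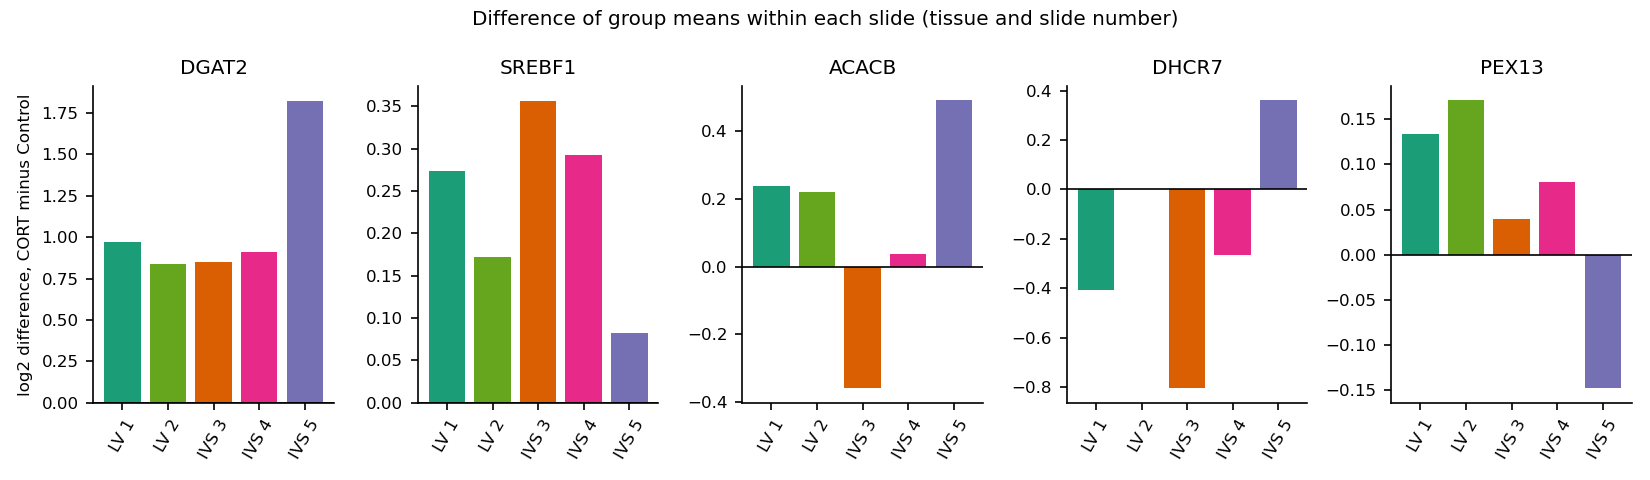
Difference of the CORT and Control means (vertical axis, log2) within each slide (horizontal axis, tissue and slide number), 1 panel per gene with its own vertical scale starting or crossing at 0. DGAT2 and SREBF1 are above 0 on all 5 slides, while ACACB, DHCR7 and PEX13 have differences of both signs, that of DHCR7 on slide 2 being 0.00083.

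The spread of DGAT2 between lambs of the same group stood out among the probes of the array. Its pooled SD in the LV was 1.32 log2 units, against a median of 0.163 over the 11518 probes tested, and 21 probes had a larger one. In the IVS the pooled SD was 0.867, larger than that of 98.4% of the 11685 probes tested, whose median was 0.244. Among the probes tested, 0.434% had a pooled SD above 1 in the LV and 0.941% in the IVS. The other 4 genes lay far lower: their pooled SD was between 0.148 and 0.215 in the LV and between 0.289 and 0.388 in the IVS.

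In the LV, DGAT2 moved from lamb to lamb with 2 of the 4 adipocyte markers tested there, FABP4 and PPARG. The other 2, PLIN1 and LEP, had an r with DGAT2 of -0.10 and 0.28 after the group means were removed. Of the 955 LV probes with a gene name, that of FABP4, a fatty acid carrier abundant in fat cells and also made by capillary endothelium, had the highest correlation with DGAT2 after the group means were removed (r = 0.87 over 16 arrays). It was followed by LTF, which encodes lactoferrin and was well above background on 8 of the 16 arrays (r = 0.85), and PPARG, the master regulator of fat cell formation (r = 0.85). These points share their arrays and their normalization, and 1 of 11489 LV probes, which has no gene name here, had an r above 0.9 with DGAT2.

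On LV Control arrays 2, 5 and 8, the 3 with DGAT2 near 12, FABP4 was 9.52, 10.16 and 9.73. On the other 5 Control arrays FABP4 was between 6.40 and 7.00 and DGAT2 between 8.25 and 9.64. Of these, Controls 4 and 6 had FABP4 not well above background. On CORT arrays 4 and 5, which had the highest DGAT2 of their group, FABP4 was 9.81 and 9.71. The match was not complete: CORT 2 had FABP4 at 9.0 with DGAT2 at 10.41, and CORT 8 had FABP4 at 6.32 with DGAT2 at 10.58. Both of the LV CORT arrays with FABP4 not well above background (6 and 8) had DGAT2 above all 5 Control arrays with low FABP4.

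Pearson's r of FABP4 with DGAT2 was 0.94 over the 8 LV Control arrays (Spearman's rho 0.64) and 0.77 over the 8 LV CORT arrays (rho 0.45). When the 2 arrays farthest from the median of DGAT2 were left out of each group, r was 0.87 in Control and -0.28 in CORT, so that the relation in CORT lambs rests on arrays 4 and 5. The Control value without 2 arrays still included Control 2, the third array with DGAT2 near 12, so the Control relation rests on the 3 high arrays in the same way. For PPARG the values were 0.92 (rho 0.81) in Control and 0.72 (rho 0.43) in CORT, and 0.88 and -0.50 without those arrays, again with Control 2 still included.

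The same did not appear in the IVS, where FABP4 was well above background on 5 of 16 arrays, against 12 of 16 in the LV. On the 6 IVS CORT arrays with DGAT2 above 10, FABP4 lay between 6.24 and 6.60. PPARG was well above background on all 16 IVS arrays and had an r with DGAT2 of 0.15 after the group means were removed. The difference between the tissues in these correlations was not tested.

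**Figure D3:**
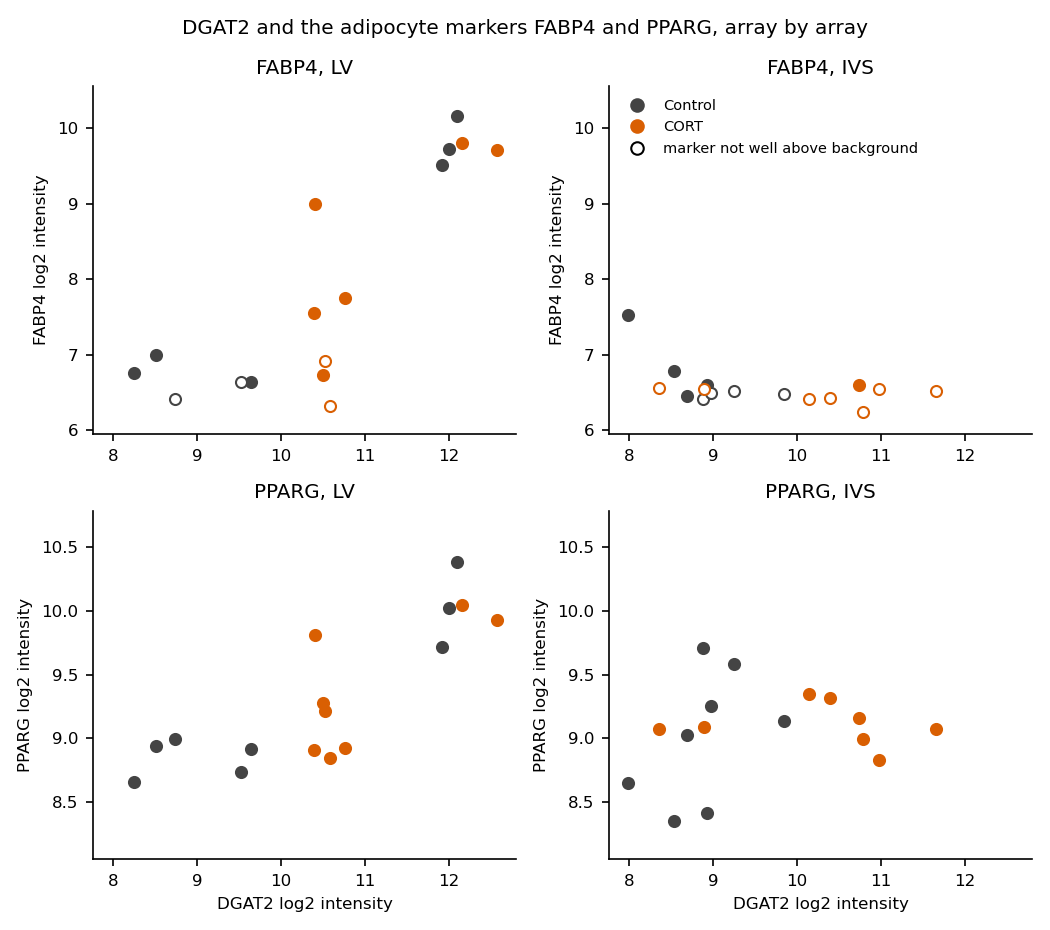
FABP4 (top) and PPARG (bottom) against DGAT2 (horizontal axes), all in log2 normalized intensity, in the LV (left) and the IVS (right). Each point is an array, grey for Control and orange for CORT, and open where the marker was not well above background. In the LV the 3 Control arrays with DGAT2 near 12 have FABP4 between 9.52 and 10.16, and in the IVS no array has FABP4 above 7.52.

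Of 14 adipocyte markers on the list, the files name 6 (LEP, PLIN1, FABP4, PPARG, UCP1 and PCK1). Their summed intensity ranged from 1015 to 3031 in LV Control, 1023 to 2487 in LV CORT, 1005 to 1577 in IVS Control and 1098 to 1362 in IVS CORT. The sums of the LV and the IVS are not compared. Each tissue was normalized apart, and PLIN1 and PCK1 were read from different probes in the LV and the IVS. UCP1 was well above background on 6 and PCK1 on 3 of the 16 LV arrays. PLIN1, the coat protein of the fat cell's lipid droplet, varied little in the LV (7.53 to 8.05) and had an r with DGAT2 of -0.10. CORT and Control lambs did not differ in FABP4 in the LV beyond the spread (log2 difference 0.12, SE 0.68, limma adjusted p = 0.999) nor in PPARG (0.07, SE 0.26, limma adjusted p = 0.999). The part of fat cells in the DGAT2 values was not tested, and in whole tissue more cells of a type cannot be told apart from more RNA per cell.

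DGAT2 had a lower level in the IVS than in the LV, with a log2 difference (IVS minus LV) of -1.16 (SE 0.68) when all 32 arrays were normalized together. Its mean was 10.60 ± 1.35 (SD, n = 16) in the LV and 9.49 ± 1.09 (SD, n = 16) in the IVS. The difference did not pass the test with slide as a random block (limma adjusted p = 0.559), under which 0.148% of 11520 probes passed. It passed without the slide (limma adjusted p = 0.0481), in a fit in which 1374 of the 11520 probes passed. It also passed with a random block that joined LV and IVS arrays of the same treatment and number, in place of the slide (limma adjusted p = 0.0317). Under that block 1639 of the 11520 probes passed. Each slide held 1 tissue only. Apart from these blocks the fits take the 32 arrays as independent. The study's methods describe LV and IVS samples cut from the same hearts, so the tissues share lambs. The fit with slide as a block leaves this sharing out, and the labels do not say which arrays pair. Set against the LV with IVS slide 5 alone, which was scanned with the LV slides, the difference was -0.79 (SE 0.49, limma adjusted p = 0.340), in a fit in which 8.39% of the probes passed.

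Across arrays of the same number in the 2 tissues, DGAT2 had an r of 0.60 over the 8 Control pairs and 0.61 over the 8 CORT pairs. For DHCR7 it was 0.87 and 0.69. The other 3 genes lay between -0.33 and 0.62, and the labels do not say that a number stands for the same lamb in both tissues. Over all probes, the deviation of an LV array from its group and slide means was compared with those of the 8 IVS arrays of its treatment. It was most like that of its own number for 6 of the 16 numbers: Controls 6 and 8 (r = 0.45 and 0.36) and CORT 5, 6, 7 and 8 (r = 0.47, 0.29, 0.67 and 0.66). These 6 IVS arrays all lay on slide 5, scanned with the LV slides, where Control 7 (r = -0.12) was the only other array. No number with its IVS array on slides 3 and 4 matched in this way. For the 10 numbers without a match, r was from -0.30 to 0.24.

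**Figure D4:**
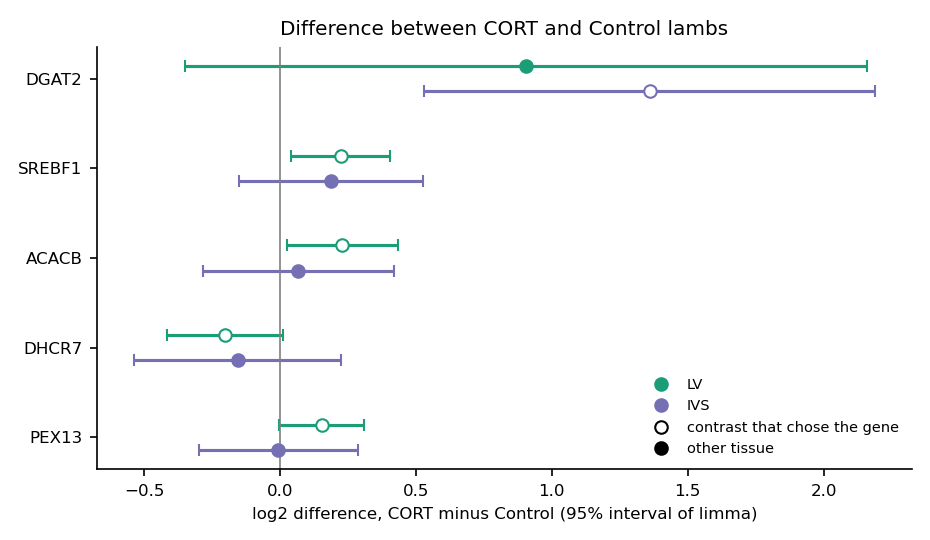
Log2 difference between CORT and Control lambs (horizontal axis) for the 5 genes in the LV (green) and the IVS (purple), with the 95% interval from limma and 8 arrays per group. Open points are the contrasts for which a gene was chosen and filled points those that the choice did not use. All 5 filled intervals include 0. So do the open LV intervals of DHCR7 (-0.42 to 0.012) and PEX13 (-0.0044 to 0.31). The 2 intervals for DGAT2 are the widest in their tissue.

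SREBF1, the regulator, was chosen for its LV values. There the lowest, median and highest log2 intensity were 12.98, 13.21 and 13.49 in Control and 13.23, 13.40 and 13.84 in CORT lambs. The groups overlapped, with 3 CORT arrays above every Control and 4 Controls below every CORT array. Control arrays averaged 13.22 ± 0.17 (SD, n = 8) and CORT arrays 13.45 ± 0.19 (SD, n = 8), a log2 difference of 0.22 (SE 0.086), and without CORT 3, the highest array, it was 0.17.

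In the IVS, SREBF1 had a difference of the same sign with a larger spread. The lowest, median and highest values were 13.12, 13.53 and 14.12 in Control and 13.30, 13.62 and 14.52 in CORT lambs. The groups overlapped, with 1 CORT array above every Control and 1 Control below every CORT array. The log2 difference was 0.19 (SE 0.16, 95% interval -0.15 to 0.52) and did not pass the test (limma p = 0.263, adjusted p = 0.993; two-sided exact permutation p = 0.304). Without CORT 2, the highest array, it was 0.074, and without 1 array at a time it was at most 0.27. Part of the spread lay between slides, since the mean of slide 3 was 14.03 against 13.63 and 13.42 on slides 4 and 5. With slide as a block the difference was 0.22 (SE 0.11, limma unadjusted p = 0.0708, a fit in which 7.52% of the probes passed 0.05), and it was 0.36, 0.29 and 0.083 within slides 3, 4 and 5.

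ACACB, the carboxylase, was 7.87, 8.08 and 8.68 at its lowest, median and highest in LV Control lambs, and 8.23, 8.35 and 8.69 in LV CORT lambs. Of the 8 Control arrays, 6 lay below every CORT array, and the other 2 (1 and 7) lay within the CORT range. Control arrays averaged 8.15 ± 0.25 (SD, n = 8) and CORT arrays 8.38 ± 0.14 (SD, n = 8), a log2 difference of 0.23 (SE 0.098) that came to 0.24 and 0.22 within the 2 slides.

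The difference of ACACB in the IVS did not pass the test, and its interval includes both 0 and the LV value. ACACB was 7.96, 8.63 and 9.21 at its lowest, median and highest in Control and 8.38, 8.62 and 8.98 in CORT lambs, so the CORT arrays all lay inside the Control range. The log2 difference was 0.067 (SE 0.17, 95% interval -0.28 to 0.42, limma p = 0.694, adjusted p = 0.993; two-sided exact permutation p = 0.710). With slide as a block it was 0.14 and with weighted arrays 0.13, and without 1 array at a time it ranged from -0.020 (without Control 8) to 0.16 (without Control 1), and was 0.0091 and 0.00017 without Controls 6 and 7. It was -0.36, 0.039 and 0.49 within slides 3, 4 and 5, and the 3 lowest arrays were the Controls of slide 5.

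DHCR7, of cholesterol synthesis, was the only one of the 5 that was lower in CORT lambs of the LV. Its lowest, median and highest values were 9.26, 9.59 and 9.89 in Control and 8.84, 9.45 and 9.60 in CORT lambs. The groups overlapped, with CORT 2 at 8.84 below every Control array and Controls 1, 2 and 3 (9.89, 9.61 and 9.73) above every CORT array. The mean was 9.60 ± 0.18 (SD, n = 8) against 9.40 ± 0.25 (SD, n = 8), a log2 difference of -0.20 (SE 0.10), and -0.12 without CORT 2. All of it came from slide 1, where the difference was -0.41, while on slide 2 it was 0.00083.

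In the IVS, DHCR7 was 8.71, 9.53 and 10.17 at its lowest, median and highest in Control and 8.81, 9.50 and 9.76 in CORT lambs. The log2 difference was -0.16 (SE 0.18, 95% interval -0.54 to 0.23) and did not pass the test (limma p = 0.401, adjusted p = 0.993; two-sided exact permutation p = 0.437). It was -0.028 with weighted arrays, -0.10 with cyclic loess normalization, -0.064 without Control 3, -0.075 without CORT 2, -0.089 without CORT 1, -0.10 without Control 1 and -0.27 without Control 8. It was -0.81 and -0.26 within slides 3 and 4 and 0.36 within slide 5.

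PEX13, of peroxisomal import, had the smallest difference in both tissues. In the LV its lowest, median and highest values were 8.61, 8.88 and 9.08 in Control and 8.81, 9.03 and 9.17 in CORT lambs, with a log2 difference of 0.15 (SE 0.074). In the IVS they were 8.80, 9.19 and 9.67 in Control and 9.03, 9.08 and 9.74 in CORT lambs, and the difference was -0.0070 (SE 0.14, 95% interval -0.30 to 0.29, limma p = 0.960, adjusted p = 0.997; two-sided exact permutation p = 0.964). The 4 highest PEX13 values of the IVS were those of the 4 arrays of slide 3, of both groups, where the mean was 9.64 against 8.99 and 9.17 on slides 4 and 5.

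None of the 4 genes tested in the IVS passed an unadjusted p under 0.05, a limit passed by 3.59% of the 11685 IVS probes. In the LV, where DGAT2 was tested and did not pass, 3.85% of the 11518 probes passed that limit. No probe passed a Benjamini-Hochberg adjusted p under 0.05 in either tissue (limma, smallest adjusted p 0.999 in the LV and 0.993 in the IVS), among 444 LV and 419 IVS probes with an unadjusted p under 0.05. Whether a gene's difference was unlike in the LV and the IVS was not tested. Between the tissues, SREBF1 (0.27), ACACB (0.23), DHCR7 (-0.20) and PEX13 (0.17) had log2 differences, IVS minus LV, that did not pass either (limma adjusted p from 0.501 to 0.766).

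After the group means were removed, no pair of them had an r beyond 0.30 in either direction over the 16 LV arrays. In the IVS, ACACB and DHCR7 had an r of 0.66, which was 0.81 when slide means were removed as well. SREBF1 had an r of -0.51 with DHCR7 and 0.0092 with ACACB, and -0.66 and -0.70 with slide means removed. PEX13 had an r of 0.60 with SREBF1 and -0.46 with DHCR7, which were 0.28 and -0.33 with slide means removed, and DGAT2 with SREBF1 went from -0.038 to 0.45. These points share the arrays, and many other IVS probes varied together: with slide and group means removed, 154 of 11606 probes had an r above 0.9 with DHCR7, against 1 for SREBF1 and none for DGAT2.

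With slide and group means removed in both tissues, the named probes most like SREBF1 in the IVS were PGD, an enzyme of the pentose phosphate pathway that yields NADPH (r = 0.87), CA11 (r = 0.78) and SQLE, the squalene epoxidase of cholesterol synthesis (r = 0.77). In the LV they were AQP4, a water channel (r = 0.82), CYP2J (r = 0.74) and the RNA polymerase subunit POLR2G (r = 0.74). ACACB in the LV was most like TAC1 (r = 0.80), the protease inhibitor SLPI (r = 0.72) and the chemokine CXCL8 (r = 0.72). In the IVS it was most like the insulin-like growth factor receptor IGF1R (r = 0.91), the cotransporter SLC12A4 (r = 0.86) and SLC25A20, which carries acylcarnitines into mitochondria (r = 0.85). DGAT2 in the IVS was most like the chemokine receptor CXCR4 (r = 0.70). Next came LPAAT, the files' name for an acyltransferase of an earlier step of glycerolipid synthesis (r = 0.67), and the transcription factor DBP (r = 0.62). DHCR7 was most like the receptor FZD3 in the LV (r = 0.83) and creatine kinase CKB in the IVS (r = 0.94), and PEX13 like HACD1, an enzyme of fatty acid elongation, in the LV (r = 0.85) and TFAP2A, a transcription factor, in the IVS (r = 0.78). With group means alone removed, the IVS order differed. SREBF1 was then most like PURA (r = 0.85), SMCT1 (r = 0.81) and GRINA (r = 0.81). For DGAT2, CXCR4 (r = 0.70) was followed by TBP (r = 0.59) and CDKN1B (r = 0.57). For ACACB, PUS1 (r = 0.78) took the place of SLC25A20, and DHCR7 was most like ARF1 (r = 0.91). PEX13 in the IVS was then most like ARL1, a small GTPase of the Golgi (r = 0.95), and 126 probes had an r above 0.9 with it. Each r is over 16 arrays and is a description.

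The lipid pathways around the 5 genes were read from lists of 160 genes, of which the files name 21 and 19 passed the limit on dim probes in each tissue. In the LV, none of the 19 was higher and 1 was lower in CORT lambs at an unadjusted p under 0.05, beside 1.66% of all probes higher and 2.2% lower. In the IVS, none was higher and 1 was lower, beside 1.39% and 2.19%. None passed an adjusted p under 0.05. The median log2 difference of the 19 was 0.041 in the LV and 0.056 in the IVS, and that of all probes was 0.0015 and -0.0082.

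**Figure D5:**
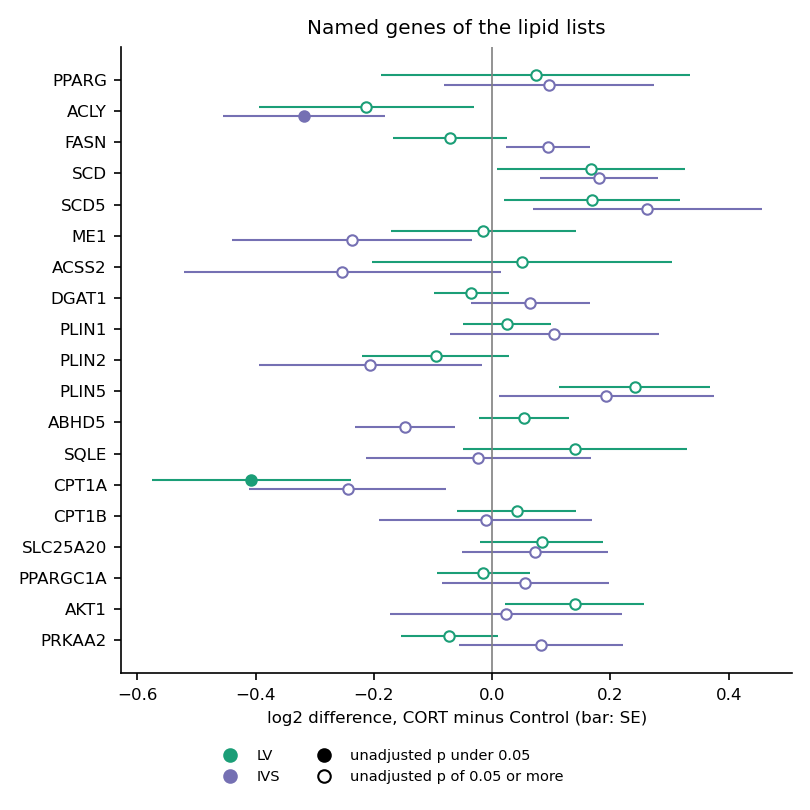
Log2 difference between CORT and Control lambs (horizontal axis, with its standard error) for the 19 named genes of the lipid lists, in the LV (green) and the IVS (purple), 8 arrays per group. Filled points have an unadjusted p under 0.05, which are CPT1A in the LV and ACLY in the IVS. PLIN5 has the largest positive LV difference, 0.24.

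The gene lower in the LV was CPT1A, which attaches fatty acids to carnitine so that they can enter mitochondria and is inhibited by the malonyl-CoA that ACACB makes. Control arrays averaged 9.06 ± 0.32 (SD, n = 8) and CORT arrays 8.65 ± 0.41 (SD, n = 8), with a log2 difference of -0.41 (SE 0.17, limma unadjusted p = 0.0268). Its other probe differed by -0.40 (limma unadjusted p = 0.0297). In the IVS the difference was -0.24 (SE 0.17, limma unadjusted p = 0.161). CPT1B, the muscle form of the enzyme, differed by 0.041 (SE 0.10) in the LV and -0.011 (SE 0.18) in the IVS, and SLC25A20 by 0.084 and 0.072. PPARGC1A, a coactivator of mitochondrial genes, differed by -0.015 and 0.056.

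The gene lower in the IVS was ACLY, which makes the acetyl-CoA that acetyl-CoA carboxylases use. IVS Control arrays averaged 8.56 ± 0.34 (SD, n = 8) and CORT arrays 8.24 ± 0.21 (SD, n = 8), with a log2 difference of -0.32 (SE 0.14, limma unadjusted p = 0.0321), and it differed by -0.21 (SE 0.18, limma unadjusted p = 0.256) in the LV. Of the other enzymes of fatty acid synthesis, the desaturases SCD and SCD5 had differences of 0.17 and 0.17 in the LV and 0.18 and 0.26 in the IVS, and FASN, the fatty acid synthase, of -0.071 and 0.094. ACSS2 and ME1, which supply acetyl-CoA and NADPH, differed by 0.051 and -0.015 in the LV and by -0.25 and -0.24 in the IVS. All these lay within the spread between lambs.

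DGAT1, the other enzyme of the DGAT step, which is unrelated to DGAT2 in sequence, differed by -0.035 (SE 0.064) in the LV and 0.064 (SE 0.10) in the IVS. Its SD in a group was between 0.11 and 0.22, against 0.54 to 1.66 for DGAT2. Of the lipid droplet genes, PLIN5, the droplet coat protein of oxidative muscle, had the largest LV difference (0.24, SE 0.13, limma unadjusted p = 0.0768) and 0.19 in the IVS. PLIN2 differed by -0.095 and -0.21, and ABHD5, the activator of the main triglyceride lipase, by 0.054 and -0.15. SQLE differed by 0.14 (SE 0.19) in the LV and -0.024 (SE 0.19) in the IVS. Of the signalling genes, AKT1 differed by 0.14 and 0.024 and PRKAA2, a catalytic subunit of the energy sensor AMPK, by -0.072 and 0.082. None of the 16 peroxisome biogenesis genes on the list is named in the files, so PEX13 has no companion here.

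Of the markers of other cell types, COL3A1, a collagen of fibroblasts, had a log2 difference of -0.28 (SE 0.0996, limma unadjusted p = 0.0131) in the LV and CD14, a marker of monocytes, of -0.16 (SE 0.071, limma unadjusted p = 0.0338; its other probe -0.09, limma unadjusted p = 0.358). DCN, the other fibroblast marker tested, differed by 0.078 (SE 0.11) in the LV. CD3E and CD3D, the other leukocyte markers tested, differed by 0.15 (SE 0.22) and -0.058 (SE 0.085) there. COL3A1 and CD14 were 2 of the 19 marker genes tested in the LV, where 3.85% of all probes had an unadjusted p under 0.05. The others of the 19 had an unadjusted p of 0.05 or more, as did all 19 tested in the IVS. The part of these cell types in the values of the 5 genes was not tested.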

How the data were processed

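RNA of 8 CORT and 8 Control lambs per tissue was measured on 1-colour Agilent sheep arrays, 1 sample per array. Groups and replicate numbers were taken from the sample labels. The authors deposited the scanner's output (Feature Extraction 10.1.1.1 in the submitters' processing notes), in which each spot has an intensity and a local background in arbitrary units. For each tissue the authors further deposited a matrix of log2 values, background corrected and quantile normalized with limma and filtered for brightness, which was used as an alternative and to trace the names of the 5 probes. The methods and the labels differ on the dye and the amount of RNA, which changes no value here.

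Mean intensities were corrected for the median local background by normexp with an offset of 50, then quantile normalized across the tissue's 16 arrays (all 32 for the comparison of tissues) in limma 3.58.1 under R 4.3.3. Control and outlier spots were left out and spots of a probe averaged. A probe was tested when over 10% brighter than the 95th percentile of the negative controls on at least 8 arrays (16 of 32 for the tissues). Across arrays the median intensity ranged from 131 to 332 and the share of probes well above background from 59.7 to 80.4%; the number of arrays limits the precision.

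CORT and Control were compared by limma's moderated test with Benjamini-Hochberg adjustment over all probes, and for single genes by exact permutation (scipy 1.17.1). The tissues were compared with slide as a random block (statmod 1.5.0). Other tables were made in Python 3.11.15 with pandas 2.3.3, and the fits were tested on simulated data. Genes were named from the files' annotation and a reference table of 35057 sheep genes, which named 1419 probes and 884 symbols. Named genes are the 5, the listed lipid genes with an unadjusted p under 0.05 or the largest differences, the named probes most correlated with each of the 5, and cell type markers. The 5 genes and the lists were chosen with earlier results of these data known. The brightest probe stands for a listed gene. The labels do not pair Control with CORT lambs by replicate number, and the main fits did not pair them. The correlation of same-numbered deviations from the group mean ranged from 0.0032 to 0.29 in the LV and from -0.15 to 0.42 in the IVS. Numbers run in slide order in both groups and slide means were not removed here, so these values cannot tell whether a number pairs lambs. Alternatives were the normexp offset, no background correction, the processed signal, cyclic loess, the deposited matrix, the brightness limit, slide or replicate blocks, array weights, trended and robust eBayes, each array left out, values within slides and, chosen after seeing the data, IVS slide 5 alone against the LV. The p-values assume that the lambs are independent.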

Additional observations from a re-analysis of the deposited data

Results flagged for a closer look

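Of 20 groups of 8 arrays examined for the 5 genes, 3 held an array farther from the others than Dixon's criterion at 95% allows, where chance gives about 1 in 20. All 3 lay among the LV CORT arrays, in the contrast for which the genes were chosen. SREBF1 was 13.84 on LV CORT 3, with the other 7 between 13.23 and 13.51. ACACB was 8.69 on LV CORT 5, with the others between 8.23 and 8.45, and the LV difference was 0.18 without it. DHCR7 was 8.84 on LV CORT 2, with the others between 9.27 and 9.60, and the LV difference moved from -0.20 to -0.12 without it.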

How the results depend on the processing

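Under 13 alternatives of the whole fit, the LV differences of all 5 genes kept their direction. So did the IVS differences of DGAT2, SREBF1, ACACB and DHCR7. The brightness limits, the replicate block and the eBayes setting cannot move a difference within a tissue, nor can the slide block in the LV. Where a gene was chosen for its difference, the kept direction is a description and no support. No test of DGAT2 in the LV (limma p from 0.0895 to 0.170) or of the others in the IVS passed. DGAT2 ranged from 0.90 to 1.06 in the LV and from 1.29 to 1.54 in the IVS. Reversals were small or lay within slides: DHCR7 in the LV was 0.00083 within slide 2 and in the IVS 0.36 within slide 5, ACACB in the IVS was -0.36 within slide 3, and PEX13 in the IVS was 0.022 with cyclic loess, 0.040 within slide 3 and 0.080 within slide 4. Without 1 array at a time, ACACB in the IVS ranged from -0.020 to 0.16, below 0 only without Control 8, and PEX13 from -0.080 to 0.056; the LV difference of DGAT2 had p from 0.0534 to 0.286.

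The count of probes with an unadjusted p under 0.05 was 744 with weighted arrays in the LV, and 879 with slide as a block in the IVS. Without 1 array at a time it ranged from 298 to 603 in the LV and from 228 to 852 in the IVS, where it was 261, 253, 228, 708 and 852 without Control 1, 2, 3, 5 and 8. With the replicate number as a block, which shares only a number between Control and CORT lambs, it was 639 in the IVS; the block changed no call of the 5 genes within a tissue. Between the tissues, the block was instead a random one that joined the LV and IVS arrays of the same treatment and number. With it 1639 of the 11520 probes passed an adjusted p under 0.05 and DGAT2 passed (-1.11, limma adjusted p = 0.0317). DGAT2 also passed without the slide (1374 of the 11520 probes, -1.11). The count was 4 with a normexp offset of 0, 3 with the processed signal, 3 with cyclic loess, 63 without the brightness limit, 4 with CORT arrays only and 966 with IVS slide 5 only, where ACACB was -0.076. Causes were not tested. FABP4 in the IVS lies too near background to be measured on 11 of 16 arrays.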
